A study of Mus with 17 samples.

Results

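A dividing cell leaves a transcript trace for each stage of its cycle, and 6 mouse transcripts of such stage markers were followed here in the abdominal aorta: Mki67, Top2a, Ccnb1, Cdk1, Ccnd1 and Pcna. Each was chosen by 1 Ensembl transcript identifier, with the gene name as the member list pairs it. Of the 6, 4 had a row in at least 1 of the files used, among 45780 transcripts in all. Ccnd1 (ENSMUST00000093962) and Pcna (ENSMUST00000028817) had rows in all 17 files. Mki67 (ENSMUST00000033310) and Top2a (ENSMUST00000068031) had rows in the 6 files of the neferine group, and their Control and AngII values were not analysed here. Ccnb1 (ENSMUST00000072119) and Cdk1 (ENSMUST00000020099) were not analysed here.

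The study compared aortas of wild-type C57BL/6 mice treated for 42 days. The Control group (n = 5) received saline and double distilled water. The AngII group (n = 6) received angiotensin II at 500 ng/kg/min, a vasoconstrictor peptide that raises blood pressure, and double distilled water. The AngII+neferine group (n = 6) received the same angiotensin II dose and neferine, an alkaloid of lotus seed, at 1 mg/kg/day. The labels give neither the age of the mice nor the number of animals behind a sample, so the spread that the p-values rest on is that between samples and may be technical.

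Entry into the cell cycle begins with D-type cyclins. Ccnd1 encodes cyclin D1, which accumulates after mitogen stimulation and drives cells through G1 with its partner kinases. Pcna encodes the sliding clamp that holds DNA polymerase on its template during S phase and also serves in DNA repair, so its RNA is present in cells that are not dividing. Mki67 encodes Ki-67, a coat protein of mitotic chromosomes and the usual histological marker of proliferation, and Top2a encodes the topoisomerase that untangles sister chromatids before they part. Ccnb1 and Cdk1 encode cyclin B1 and its kinase, the pair that starts mitosis. In the healthy adult aorta most smooth muscle and endothelial cells are quiescent, and angiotensin II is known as a growth stimulus for smooth muscle cells in culture.

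The values are abundance signals per transcript in the authors' own unit, which the files do not name. They were compared between groups for 1 transcript at a time, and levels of different genes were not compared, since it is not stated whether the signal is per length. Each row is 1 transcript, not the sum over a gene, so a change in it cannot be told apart from a shift of signal to another isoform. In whole tissue, fewer cells of a type and less RNA per cell cannot be told apart either. The markers of smooth muscle, endothelium and other cell types could not be looked up without gene names, so the tissue label was not tested. Libraries were alike in estimated depth relative to AngII replicate 5, from 0.980 to 1.11. The median rank correlation of a library with its 16 counterparts was 0.455 for AngII replicate 6 and between 0.606 and 0.680 for every other library. AngII replicate 2 and neferine replicate 1 held 31.0% and 29.0% of their signal in their 10 highest transcripts, against 10.6% to 21.8% in the rest.

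Ccnd1 had higher means in both angiotensin II groups than in Control, but the groups overlapped and no difference passed the test. Its signal in the Control libraries was 6.99, 11.01, 10.02, 6.65 and 10.2 in replicates 1, 2, 4, 5 and 6. In AngII the lowest value was 7.34, the median 11.97 and the highest 22.3. In AngII+neferine the lowest was 7.69, the median 15.5 and the highest 23.9. Thus 3 of 6 AngII libraries (replicates 3, 4 and 6) and 4 of 6 AngII+neferine libraries (replicates 2, 3, 4 and 6) lay above every Control library, while the others lay within the Control range. Groups did not overlap in 0.807% of all transcripts tested for AngII against Control, in 2.08% for AngII+neferine against Control and in 0.263% for AngII+neferine against AngII. Ccnd1 overlapped in each comparison, so these shares are not a background for the counts of libraries above Control. The share of transcripts with as many libraries above every Control library was not computed, so how unusual the counts are is unknown.

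The question of whether angiotensin II infusion alters Ccnd1 was addressed by the comparison of AngII with Control. The mean signal was 13.3 ± 6.07 (SD, n = 6) in AngII and 8.97 ± 2.002 (SD, n = 5) in Control. The difference in log2(signal + 1) was 0.44 ± 0.32 (SE), with a 95% interval from -0.25 to 1.12, and it did not pass (limma, Benjamini-Hochberg adjusted p = 0.784 over 29983 transcripts). An exact two-sided permutation test of the same difference gave p = 0.173, where 0.00216 is the smallest p this design allows. In this comparison limma called 0% of all transcripts tested, and 7.25% had an unadjusted p under 0.05. Without AngII replicate 6, which had the highest Ccnd1 value of its group as deposited, the difference was 0.28 (limma, adjusted p = 0.901).

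**Figure D1:**
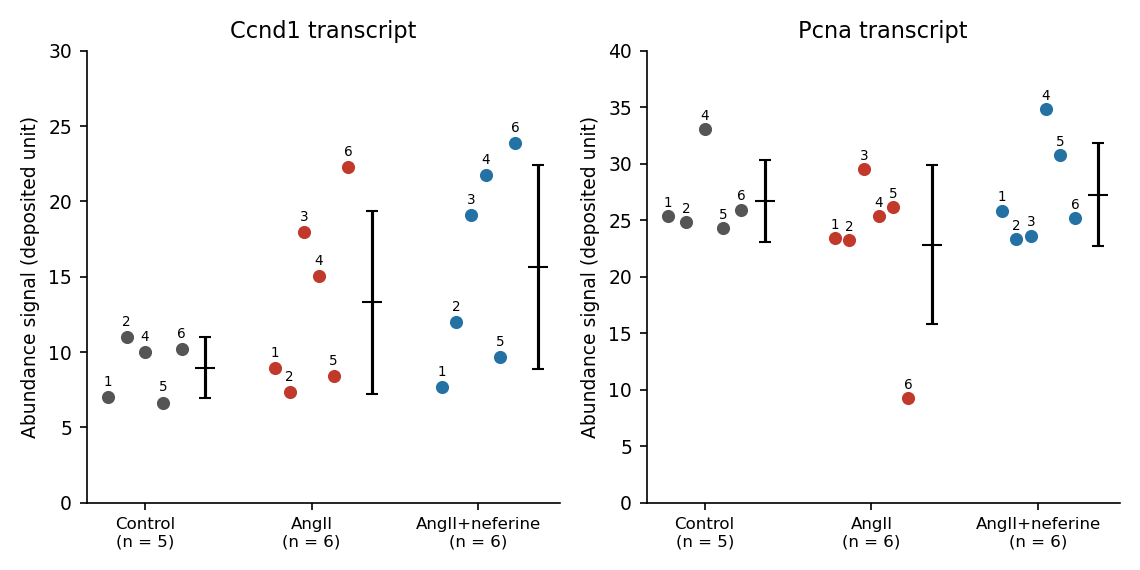
Abundance signal of the Ccnd1 (left) and Pcna (right) transcripts in each library, with replicate numbers above the points. Horizontal bars and error bars are the group mean and SD (n = 5 Control, 6 AngII and 6 AngII+neferine). Ccnd1 spans 6.65 to 11.01 in Control and up to 22.3 and 23.9 in the other groups, and Pcna lies between 23.3 and 34.9 in all libraries except AngII replicate 6, at 9.23.

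Ccnd1 was furthest from Control in the AngII+neferine group. Its mean there was 15.7 ± 6.77 (SD, n = 6), a log2 difference from Control of 0.66 ± 0.32 (SE) with a 95% interval from -0.03 to 1.34. This did not pass (limma, unadjusted p = 0.0587, adjusted p = 0.593), and the exact permutation test gave p = 0.0671. Among all transcripts tested, 91.1% had a smaller signed difference in this comparison, 8.74% had an unadjusted p under 0.05 and 0.0367% were called. With 1 library left out the difference ranged from 0.52 without neferine replicate 6 (exact permutation p = 0.119) to 0.82 without neferine replicate 1 (exact permutation p = 0.0317), and the limma adjusted p stayed above the threshold in each case. The neferine files have their own list of transcripts, and an effect of the treatment and one of the file set cannot be told apart wherever they are used.

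No Ccnd1 difference was detected when neferine was added to the infusion. The log2 difference between AngII+neferine and AngII was 0.22 ± 0.31 (SE), with a 95% interval from -0.43 to 0.87 (limma, adjusted p = 0.971; exact permutation p = 0.545), and ranged from 0.08 to 0.39 with 1 library left out. Of the 6 neferine libraries 1 lay above every AngII library and 0 lay below all of them. In this comparison limma called 0% of all transcripts, and 5.22% had an unadjusted p under 0.05. The comparisons share libraries, so their differences are not independent of each other.

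The range of Ccnd1 was wider in the treated groups. The highest Control value was 1.66 times the lowest, while this ratio was 3.03 in AngII and 3.11 in AngII+neferine. On the log2(signal + 1) scale the SD was 0.30 in Control, 0.61 in AngII and 0.63 in AngII+neferine. The median SD over all transcripts tested was 0.49, 0.61 and 0.52 in these groups, so the Ccnd1 spread was below the median in Control, at it in AngII and above it with neferine. The difference in spread was not tested.

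The lowest Ccnd1 values of both treated groups came from the libraries dominated by few transcripts. AngII replicate 2 had a Ccnd1 signal of 7.34 and neferine replicate 1 of 7.69. When values were divided by the signal outside the 10 highest transcripts, they were 7.45 and 6.96, again the lowest of their groups. The signal outside the 10 highest was 359505 in AngII replicate 2, against 359120 to 460205 in the other AngII libraries, so this scaling changed little there. The part of the 10 highest transcripts in the low Ccnd1 values was not tested. With both libraries and AngII replicate 6 left out, the log2 differences from Control were 0.40 for AngII and 0.82 for AngII+neferine (limma, adjusted p = 0.780 and 0.259).

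Pcna, the replication clamp, lay in a narrow range in 16 of the 17 libraries. Its signal in Control was 25.4, 24.8, 33.1, 24.3 and 26.0 in replicates 1, 2, 4, 5 and 6. In AngII its lowest value was 9.23, its median 24.4 and its highest 29.5. In AngII+neferine the lowest was 23.4, the median 25.5 and the highest 34.9. All libraries other than AngII replicate 6 lay between 23.3 and 34.9, and the groups overlapped in every comparison. In AngII 3 of 6 libraries (replicates 1, 2 and 6) lay below every Control library, and 1 Control library lay above every AngII library. In AngII+neferine 2 libraries lay below every Control library and 1 above. The share of transcripts with such counts was not computed.

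No Pcna difference passed. Control had a mean of 26.7 ± 3.60 (SD, n = 5), while AngII had 22.8 ± 7.05 (SD, n = 6). The AngII+neferine mean was 27.3 ± 4.57 (SD, n = 6). AngII differed from Control by -0.29 ± 0.23 (SE) on the log2(signal + 1) scale, with a 95% interval from -0.78 to 0.21 (limma, adjusted p = 0.797; exact permutation p = 0.368). Without AngII replicate 6 this difference was -0.06 (limma, adjusted p = 0.964), so that library carried most of it. AngII+neferine differed from AngII by 0.31 ± 0.22 (SE), with a 95% interval from -0.16 to 0.78 (limma, adjusted p = 0.952; exact permutation p = 0.247), and by 0.08 without the same library (limma, adjusted p = 0.980). AngII+neferine differed from Control by 0.02 ± 0.23 (SE), with a 95% interval from -0.47 to 0.52 (limma, adjusted p = 0.987; exact permutation p = 0.890), and the sign of this small difference changed with the scaling of the libraries.

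**Figure D2:**
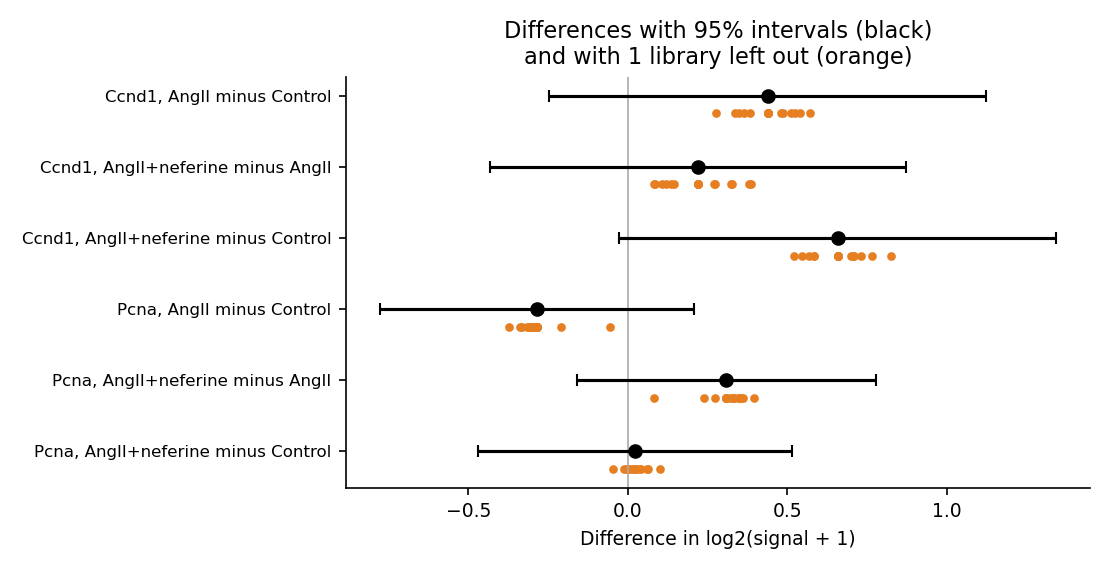
Differences in log2(signal + 1) for Ccnd1 and Pcna in the 3 comparisons. Black points and bars are the limma estimate and its 95% interval with all 17 libraries, and orange points are the estimates with 1 library left out. All 6 intervals include 0, and the Pcna differences that involve AngII move toward 0 when replicate 6 is left out.

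In Control and AngII+neferine, Pcna was among the steadier transcripts. Its SD on the log2(signal + 1) scale was 0.17 in Control and 0.22 in AngII+neferine, and 10.1% and 10.8% of the transcripts tested had a smaller SD in those groups. In AngII, with replicate 6 included, the SD was 0.57, and 45.4% of the transcripts had a smaller SD. Transcripts of like signal level were not compared separately. As deposited, AngII replicate 6 combined the lowest Pcna signal of all 17 libraries with the highest Ccnd1 signal of its group. After scaling to equal totals AngII replicate 3 had more Ccnd1 than replicate 6 (44.5 against 41.2). The same held after scaling to the signal outside the 10 highest transcripts (18.2 against 17.7). The ratio of Ccnd1 to Pcna signal, which scaling does not change, was 2.41 in AngII replicate 6. That ratio lay between 0.273 and 0.443 in Control and between 0.298 and 0.948 in AngII+neferine, with a median of 0.486 in AngII. Only the change of this ratio between libraries can be read, not its size.

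No relation of Ccnd1 with Pcna was detected across the 17 libraries. Pearson's r of log2(signal + 1) was -0.22 (permutation p = 0.442, adjusted p = 0.442 over 6 pairs of transcripts) and Spearman's rho -0.0025 (permutation p = 0.996, adjusted p = 0.996). Without AngII replicate 6 and neferine replicate 6, the libraries farthest from the Ccnd1 median, r was 0.39 (permutation p = 0.151). The sign already turned without AngII replicate 6 alone (r of 0.29, permutation p = 0.276), and it stayed negative without neferine replicate 6 alone (r of -0.25, permutation p = 0.383). Within the 11 Control and AngII libraries r was -0.49 (permutation p = 0.124), and 0.25 over the 9 that remain there without AngII replicates 3 and 6 (exact permutation p = 0.504). Within the 6 neferine libraries r was 0.10 (exact permutation p = 0.821).

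By the rule for like patterns, the transcripts whose ranks most resembled those of Ccnd1 over the 17 libraries were ENSMUST00000044155 and ENSMUST00000236322, each with a Spearman rho of 0.887 among 29983 transcripts. They were picked for the highest rho in these same data, so a pattern like that of Ccnd1 follows from the choice. How high a rho arises by chance was not tested. ENSMUST00000236322 ranged from 4.23 to 7.17 in Control, from 4.50 to 20.0 in AngII and from 5.13 to 19.1 in AngII+neferine. ENSMUST00000044155 was low throughout, between 0.351 and 1.58. The sources used here give no gene names for them. The like rule for Top2a could not be applied over 17 libraries.

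Mki67 and Top2a had a signal above 0 in all 6 AngII+neferine libraries, as did 31872 of the 41642 transcripts listed for that group. The Mki67 signal was 0.248, 0.789, 1.00, 3.07, 0.640 and 1.12 in replicates 1 to 6, with a mean of 1.15 ± 0.993 (SD, n = 6). The Top2a signal was 0.357, 1.03, 1.15, 5.44, 0.570 and 1.32 in the same libraries, with a mean of 1.64 ± 1.89 (SD, n = 6). Replicate 4 was highest and replicate 1 lowest for both, and the highest value was 12.4 times the lowest for Mki67 and 15.2 times for Top2a. Signals below 1 were seen in 3 libraries for Mki67 and 2 for Top2a, so these ratios rest on small values. The SD on the log2(signal + 1) scale was 0.57 for Mki67 and 0.79 for Top2a. Of 31872 transcripts above 0 in all 6 libraries, 70.3% and 83.9% had a smaller SD.

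**Figure D3:**
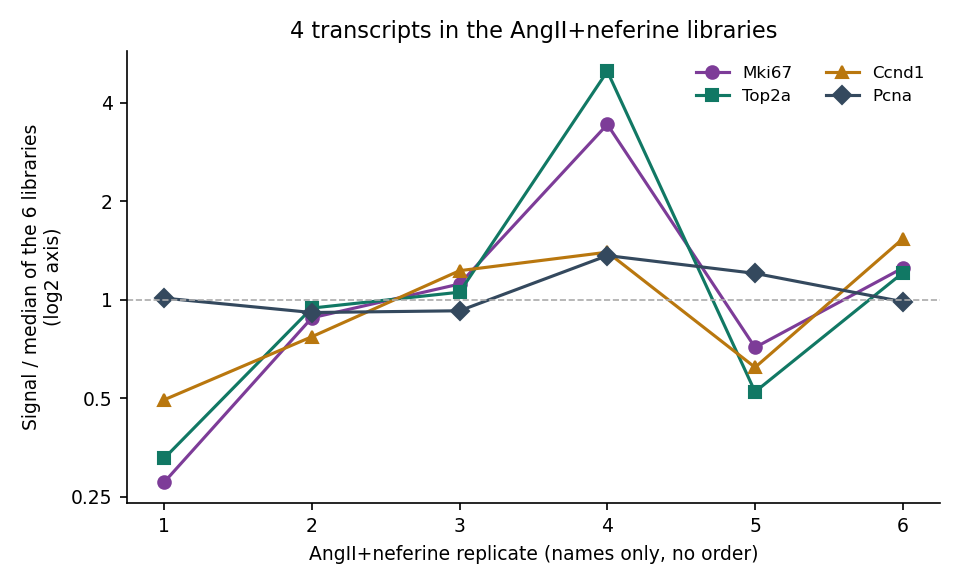
Signal of Mki67, Top2a, Ccnd1 and Pcna in the 6 AngII+neferine libraries, each divided by its own median over these libraries and drawn on a log2 axis. Lines join the values of 1 transcript and imply no order of the replicates. Mki67 and Top2a rank the libraries alike with replicate 4 highest, Ccnd1 is high in replicates 3, 4 and 6, and Pcna stays between 23.4 and 34.9 in signal.

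The difference of Mki67 and Top2a between treatments cannot be given. Each of the 43752 transcripts in the Control and AngII files had a mean of at least 0.5 in 1 or both of those groups. Of the 8108 transcripts with a neferine mean from 1 to under 2, as Mki67 and Top2a have, 311 (3.84%) had rows in the neferine files alone. No level in Control or AngII is inferred from this for either marker.

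Mki67 and Top2a ordered the 6 AngII+neferine libraries identically. Pearson's r of log2(signal + 1) was 0.987 (exact permutation p = 0.00139, the smallest 6 libraries can give, adjusted p = 0.00833 over 6 pairs). Spearman's rho was 1 (exact permutation p = 0.00278, adjusted p = 0.0167). Without replicates 1 and 4, the farthest from the Mki67 median, r was 0.938 over 4 libraries, and with any single library left out it lay between 0.960 and 0.995. Of 31871 other transcripts with a signal above 0 in all 6 libraries, 13 (0.0408%) had a higher r with Top2a than Mki67 had.

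Ccnd1 ranked the AngII+neferine libraries almost as Mki67 and Top2a did. Its Spearman rho was 0.943 with Mki67 and the same with Top2a (each exact permutation p = 0.0167, adjusted p = 0.0333). Since Mki67 and Top2a order the libraries identically, the rho with Top2a is fixed by that with Mki67 and is no further support. Pearson's r was 0.775 with Mki67 (exact permutation p = 0.0333, adjusted p = 0.1) and 0.714 with Top2a (exact permutation p = 0.0639, adjusted p = 0.128), neither of which passed the adjustment. Without replicates 1 and 4 these r were 0.994 and 0.897 over 4 libraries. Replicate 1, one of the libraries dominated by few transcripts, was lowest for all 3 transcripts. Without it r fell to 0.643 and 0.614, with a rho of 0.9 in both cases, over 5 libraries. As a background, 7.07% of the other transcripts had a higher Pearson's r with Top2a than Ccnd1 had. No such share was computed for rho, so how unusual the rank order is was not tested.

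**Figure D4:**
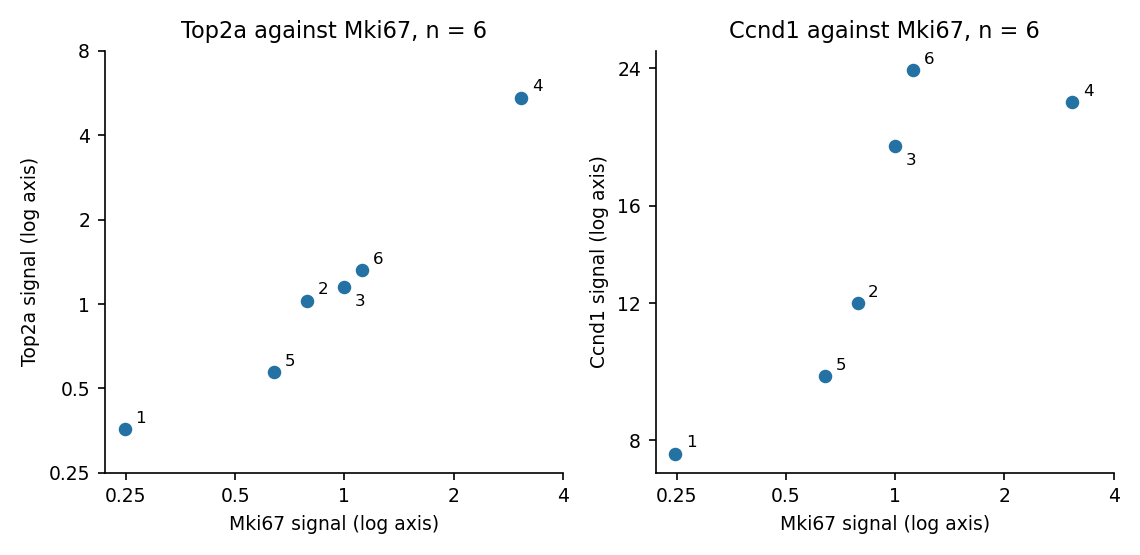
Top2a (left) and Ccnd1 (right) signal against Mki67 signal in the 6 AngII+neferine libraries on log axes, with replicate numbers beside the points. Top2a rises with Mki67 through all 6 libraries (rho of 1), and Ccnd1 rises with it except that replicate 6 lies above replicate 4 (rho of 0.943).

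No such order was detected for Pcna in the signal as deposited. Its Spearman rho was 0.143 with Mki67 and with Top2a (each exact permutation p = 0.803, adjusted p = 0.963). Pearson's r was 0.598 with Mki67 (exact permutation p = 0.214, adjusted p = 0.257) and 0.601 with Top2a (exact permutation p = 0.182, adjusted p = 0.257). Replicate 4 was highest for all 3 transcripts, with a Pcna signal of 34.9, and without it r was -0.33 and -0.57 over 5 libraries, so the positive r rested on that library. Without replicate 1 alone r was 0.646 and 0.615, and without replicates 1 and 4 it was -0.62 and -0.83 over 4 libraries. After scaling all libraries to the same total, r between Mki67 and Pcna was 0.852 (exact permutation p = 0.0472, unadjusted). With the same scaling r between Top2a and Pcna was 0.808 (exact permutation p = 0.0694, unadjusted). The rho of Pcna was then 0.6 with both (exact permutation p = 0.242, unadjusted). In the signal as deposited, 12.3% of the other transcripts had a higher Pearson's r with Top2a than Pcna had.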

How the data were processed

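RNA of 17 abdominal aorta samples was depleted of ribosomal RNA and sequenced, per the labels' protocols. The authors deposited 1 column per library of linear transcript signal that is never negative. Its unit, like the aligner, quantifier and genome build, is not given in the sources used here. Limma is named in the submitters' processing notes with no role stated. The files hold no counts, so read depth is unknown and no counting interval is given. No pair of libraries shared more than 0.414% of equal values above 0.

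The fit was made on log2(signal + 1) with limma 3.58.1 (R 4.3.3), with trend and robust moderation, 1 term per group and all 17 libraries. It covered the 29983 transcripts with a row in all files and a signal of at least 1 in at least 5 libraries. Calls needed a Benjamini-Hochberg adjusted p under 0.05. The log2 scale with this pseudocount understates changes of low transcripts. Of the 6 members, Ccnd1 and Pcna entered the fit, and both passed the filter. The script was tested on simulated data. Single values were also tested by exact permutation of the libraries, and correlations by permutation (100000 resamples, or exact under 10 libraries; SciPy 1.17.1, NumPy 2.4.6). The permutation p-values of single values were not adjusted for the number of tests. Groups and replicate numbers came from the sample titles. The correlation of deviations between same-numbered libraries of different groups lay between -0.147 and 0.064 over 16 pairs, and the labels state no shared animal or batch, so the numbers were not taken to pair libraries.

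The members, lists and alternatives were chosen with earlier results of these data known. The rule named all 6 members and the transcripts most like Ccnd1 and Top2a. A gene list of 47 other cell cycle genes and 9 marker lists of cell types were not tested. The reason is that 0 of the transcript identifiers in these data could be matched to the gene table used (RefSeq, GRCm38.p6). No sequences or coordinates are given.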

Additional observations from a re-analysis of the deposited data

Results flagged for a closer look

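Of 8 groups of 5 or 6 member values examined, 4 had 1 library far from the rest. The rule flags about 1 in 20 groups by chance if values are normally distributed. It was applied to the signal as deposited and not on the log2(signal + 1) scale, so the excess over that rate may depend on the scale. The 4 are not independent, since Mki67 and Top2a varied together. Mki67 and Top2a were flagged in the same library, AngII+neferine replicate 4, with signals of 3.07 and 5.44 against at most 1.12 and 1.32 in the other 5. Ccnd1 in that library was 21.7, the second highest of its group, and Pcna 34.9, the highest. The share of its signal in the 10 highest transcripts, 11.97%, and its relative depth of 1.11 were the lowest and the highest of the AngII+neferine group, and their part in the result was not tested. Pcna was flagged in AngII replicate 6, at 9.23 against at least 23.3 in the other 5, in the library with the lowest rho with the others (0.455) and the largest share of transcripts listed at 0 (16.4%). The part of these measures in the low Pcna value was not tested. Pcna was also flagged in Control replicate 4, at 33.1 against at most 26.0 in the other 4.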

How the results depend on the processing

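No setting brought Ccnd1 or Pcna past the limma threshold in any comparison, and the adjusted p lay between 0.259 and 1.000 over 29 or 30 settings each. Ccnd1 kept its direction in all of them, at 0.28 to 0.57 for AngII against Control, 0.08 to 0.42 for AngII+neferine against AngII and 0.52 to 0.82 for AngII+neferine against Control. Pcna kept its direction at -0.40 to -0.03 and 0.06 to 0.40 in the first pair of comparisons. In AngII+neferine against Control it reversed to -0.0646 after scaling to equal totals and to -0.0347 after scaling to the signal outside the 10 highest transcripts, an alternative chosen after seeing the data. It was -0.0018 with the replicate block, and ranged from -0.0482 to 0.0998 with 1 library left out, in both tests. The exact permutation test of Ccnd1 in that comparison gave an unadjusted p under 0.05 without neferine replicate 1, and so without the 3 libraries that stand apart (0.82, p = 0.0317). Its leave-one-out values were 0.52 to 0.82. This p was not adjusted for the 6 member tests or for the settings tried.

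Calls over all transcripts, 0, 0 and 11 in AngII against Control, AngII+neferine against AngII and AngII+neferine against Control, were 6, 3 and 63 with library weights, 7, 2 and 26 with only the groups compared, and 6, 15 and 106 without the 3 libraries. With 1 library left out they ranged from 0 to 12, 0 to 11 and 0 to 31, the upper ends without AngII replicate 6. In the third comparison they were 4 without a filter, 4 after scaling to equal totals, 7 after scaling to the signal outside the 10 highest, 0 with the replicate block and 0 by the exact rank sum test. Fitting the Control and AngII files alone, added after seeing the data, gave 7 in the first. The block changed no member's call. Scaling to equal totals moved the median difference of all transcripts from -0.03 to -0.12 in the first comparison.

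Pearson's r with Pcna reversed to -0.62 for Mki67 and -0.83 for Top2a without the 2 farthest libraries, and ranged from -0.33 to 0.78 and from -0.57 to 0.85 with 1 library left out. After scaling to equal totals it was 0.852 for Mki67 and Pcna and 0.808 for Top2a and Pcna. For Mki67 and Ccnd1 it was 0.643 without the 3 libraries and 0.994 without the farthest 2, and 0.643 to 0.926 with 1 left out. For Top2a and Ccnd1 it was 0.790 with a pseudocount of 0.1 and 0.897 without the farthest 2, and 0.614 to 0.933 with 1 left out. For Ccnd1 and Pcna it was 0.0528 after scaling to equal totals, 0.229 without the 3 libraries, 0.389 without the farthest 2, 0.0955 within the neferine libraries and -0.38 to 0.29 with 1 left out. The cause of these changes was not tested. The number of libraries, 5 or 6 in a group, and the unknown depth limit what these comparisons can detect. For Mki67, Top2a, Ccnb1 and Cdk1 no alternative could give a difference between groups.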
